A study of Mus musculus with 33 samples.

Results

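The urea cycle genes described here are the 8 rows of the deposited expression table that bear the symbols Nags, Cps1, Otc, Ass1, Asl, Arg1, Slc25a15 and Slc25a13, out of 21671 genes in the table. They were chosen by name, with earlier results of these data known. All 8 were found and passed the filter on low values in both experiments. The 33 total RNA libraries come from livers and liver noduli of C57BL/6 mice, in a study of how MYC and beta-catenin act together in liver tumours. The first experiment holds 20 livers taken 4 days after an intravenous injection of AAV8-TBG-CRE, a virus that carries the Cre recombinase under a hepatocyte promoter (TBG), into mice that were 6 to 8 weeks old. All 20 mice received the virus, 5 of each genotype: WT, beta-cat Ex3 (Ex3 below, an allele from which Cre removes exon 3 of beta-catenin, which stabilises the protein), R26-lslMYC (MYC below, a MYC transgene at Rosa26 behind a stop cassette) and R26-lslMYC/beta-cat Ex3 (MYC+Ex3 below).

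The second experiment, called the tumour arm here, holds 13 libraries. They are 3 liver noduli of Alb-CreERT2/R26-lslMYC mice (MYC tumours), 3 liver noduli of Alb-CreERT2/R26-lslMYC/b-catEx3 mice (MYC+Ex3 tumours), and 7 livers of WT mice, 4 titled S14 and 3 titled S15, taken 4 days after an intraperitoneal dose of 4-OHT (4-hydroxytamoxifen, the drug that switches CreERT2 on). Alb-CreERT2 expresses this switchable Cre under albumin regulatory sequences. The labels give no age and no treatment for the tumours, do not say whether the 4-OHT livers carry the Cre allele, and do not say whether any noduli came from 1 mouse. Each library bears its own number in its title. If some share an animal, the p-values below measure a spread that is partly technical. RPKM levels were compared within the day 4 livers and within the tumour arm. Across them, 1 fit set the effect of Ex3 within the MYC tumours against its effect within the MYC livers of day 4.

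The urea cycle turns the ammonia released from amino acids into urea, and in the adult it runs in full mainly in hepatocytes, most strongly in those around the portal vein. In the mitochondrion NAGS makes N-acetylglutamate, the activator that CPS1 requires; CPS1 joins ammonia and bicarbonate into carbamoyl phosphate, and OTC passes the carbamoyl group to ornithine, which gives citrulline. SLC25A15 exchanges cytosolic ornithine for citrulline, SLC25A13 (citrin) delivers aspartate to the cytosol, ASS1 and ASL use that aspartate to make arginine, and ARG1 splits arginine into urea and ornithine. Hepatocytes around the central vein, where beta-catenin signalling is high, instead fix leftover ammonia as glutamine through glutamine synthetase (Glul).

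Sequences before transcription start sites are shown for the 4 members in which a search of the RefSeq promoter table (build GRCm38.p6) found an E-box, CACGTG, the element that MYC and related factors bind, or a TCF/LEF core, CTTTGA, the element of the partners of beta-catenin. Each is a stretch of 30 bases, 5′ to 3′ on the gene's strand, with the matched letters in capitals. 
Ass1, chr2:31470222-31470251, plus strand: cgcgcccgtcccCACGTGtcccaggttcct
Slc25a13, chr6:6217281-6217310, minus strand: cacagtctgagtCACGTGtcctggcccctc
Slc25a15, chr8:22398337-22398366, minus strand: cgccctgccgcaCACGTGccgcggctccgg
Nags, chr11:102145298-102145327, plus strand: tttggtagcagaTCAAAGagctccaccact
The Ass1 E-box lies 36 to 31 bases before the start, and those of Slc25a13 and Slc25a15 lie 125 to 120 and 77 to 72 bases before a start that has another start upstream of it. TCAAAG in Nags, 203 to 198 bases before the start, is CTTTGA read on the other strand. Both strands of the 250 bases before each start were searched, also for the C/EBP element TTGCNNAA, which was in none of the 6 windows that the table holds for 5 of the 8 members. Of all 32536 windows in the table, 6.036% hold CACGTG, 13.89% hold CTTTGA and 9.571% hold TTGCNNAA. Cps1, Asl and Arg1 had no entry. These matches describe letters and say nothing of binding.

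Otc, the gene with the clearest difference in the tumours, is shown with the 175 bases before its first start, because none of the 3 elements occurs in its window. 
Otc, chrX:10252055-10252229, plus strand: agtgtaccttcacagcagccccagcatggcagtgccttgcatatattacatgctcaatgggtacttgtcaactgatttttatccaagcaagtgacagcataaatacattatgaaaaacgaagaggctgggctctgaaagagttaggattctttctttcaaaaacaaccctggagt
The missing elements say only that these letters are not in this window.

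Both sets of libraries had features that touch every value below. Whole read counts could be recovered from the RPKM values of 100% of the 20485 genes with any value, and with them the library totals by which the authors divided: 3.75 to 7.32 M (M for megareads) on day 4, of which 99.95 to 99.96% fell in genes, and 23.9 to 38.8 M in the tumour arm, of which 22.2 to 29.6% did. RPKM levels of the tumour arm are therefore lower for all abundant genes, and reads per gene are given beside them. On day 4, 10 of the 20 libraries carried RNA of the epidermal keratins Krt5, Krt14 and Krt17, at a summed 3.95 to 23.8 RPKM against at most 0.398 in the other 10: WT livers 2, 4 and 5, Ex3 livers 3, 4 and 5, MYC liver 4, and MYC+Ex3 livers 3, 4 and 5. Libraries with keratin reads also had smaller totals (median 4.50 against 6.06 M). Myc, whose reads need not include those of the transgene, was at 0.748 to 4.11 RPKM in WT livers and 3.12 to 4.81 in MYC livers, with overlap, and loss of 1 exon of Ctnnb1 cannot be seen in a value for the whole gene. Axin2, a gene that beta-catenin activates, was higher in Ex3 livers than in WT livers by 2.13 ± 0.351 (log2, SE; adjusted p = 0.0123, limma). Hepatocyte markers were abundant in all 7 groups: the albumin gene Alb was at 33.2 to 54.5 RPKM across the tumour arm.

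In the tumour arm the read counts of the members moved little with the size of the library, and on day 4 this held for 4 of the 8. Cps1 had between 4837 and 5643 reads in every library of that arm, while the library totals spread from 23.9 to 38.8 M. All slopes here are within groups, with log2 reads and log2 totals each centred on the mean of their group. Over the 13 libraries the slope of log2 reads on log2 library total was -0.02 for Cps1, -0.15 for Otc, -0.01 for Ass1, 0.18 for Asl, -0.32 for Arg1, 0.09 for Nags, 0.39 for Slc25a15 and 0.30 for Slc25a13, where reads in proportion to the total would give 1. Genes with 50 to 200 reads per kilobase had a median slope of 0.95, and the 161 genes with 1000 or more had one of 0.03. On day 4 the slopes were 0.26 for Cps1, 0.17 for Otc, 0.29 for Arg1 and 0.40 for Slc25a15, and near or above 1 for Ass1 (1.04), Asl (0.82), Slc25a13 (1.00) and Nags (1.41).

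**Figure D1:**
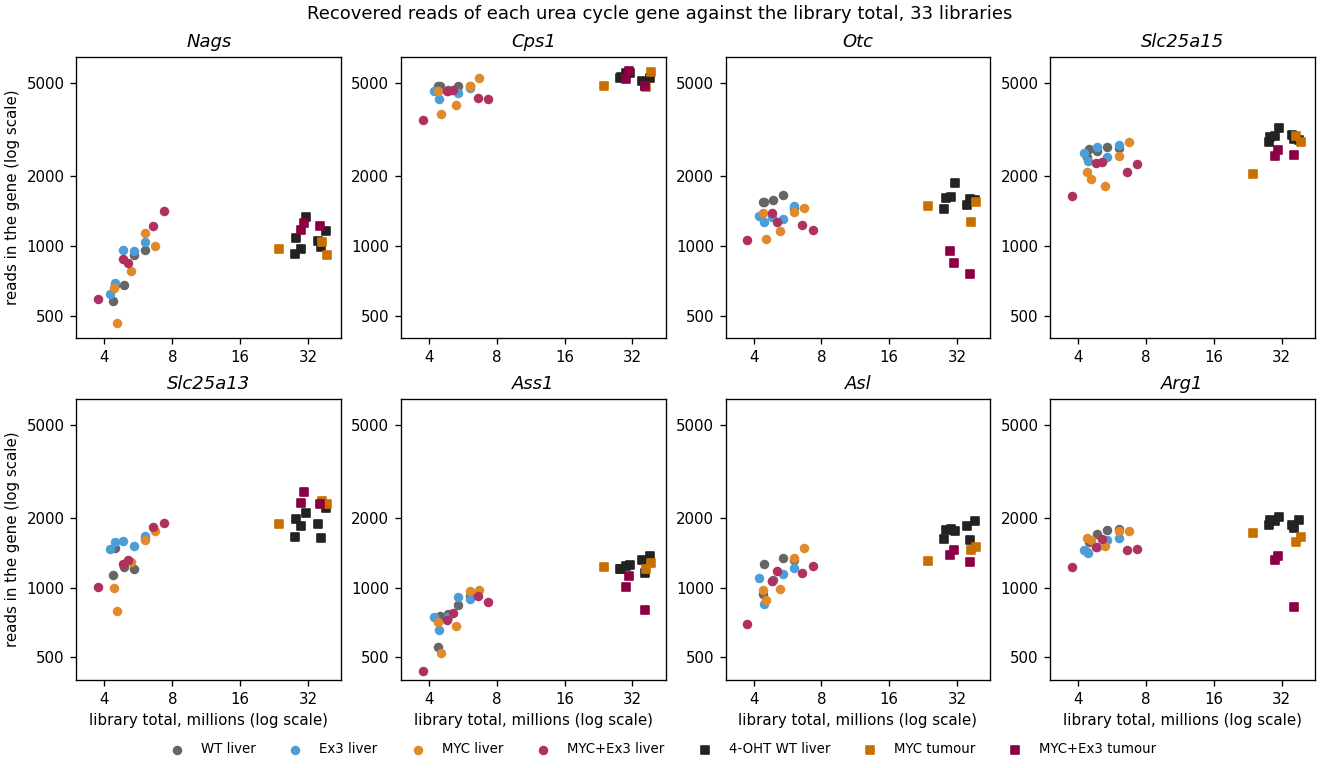
Reads in each of the 8 genes (y axis, log scale) against the library total in M (x axis, log scale) for the 33 libraries, circles for day 4 livers and squares for the tumour arm, coloured by group. Cps1 lies nearly flat across all totals, whereas the day 4 circles of Nags, Slc25a13, Ass1 and Asl climb with the total; the 3 MYC+Ex3 tumours lie lowest of all for Otc.

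The most abundant gene of any library reached 1474 to 1810 reads per kilobase whatever its total, so RPKM of these genes falls as the total rises. At 1028 to 1200 reads per kilobase in the tumour arm, Cps1 stood at 61.5 to 71.2% of the highest RPKM in the library. A difference between groups in such genes can be compressed in these values, and the step behind this was not tested. For this reason the log2 library total was added as a covariate in an alternative chosen after the data were seen, and its values are given where they differ. A lower value in a bulk sample cannot tell fewer cells of a type from less RNA per cell.

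On day 4 the urea cycle genes differed little between genotypes. Values are RPKM in the 5 livers of a group in the order of their numbers, and differences are on the scale log2(RPKM + 1) with the standard error and the adjusted p of limma over the 13688 genes tested; differences on this scale understate those of low genes. Nags, which makes the activator of CPS1, was at 80.2, 72.1, 75.0, 66.3 and 62.3 in WT livers and at 87.3, 91.1, 74.2, 77.9 and 85.9 in MYC+Ex3 livers. These ranges overlapped, and the difference of 0.22 ± 0.125 did not pass the test (adjusted p = 0.202). Ex3 livers were at 83.1, 80.8, 73.5, 93.8 and 69.5, and MYC livers at 70.0, 88.9, 71.2, 48.7 and 70.4.

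Cps1, the enzyme of the first committed step, was at 192, 232, 171, 204 and 236 in WT livers, 179.5, 168.0, 205, 204 and 234 in Ex3 livers, 164, 171, 225, 173 and 167.0 in MYC livers, and 140.3, 125, 198, 195 and 204 in MYC+Ex3 livers. MYC liver 3 stood above the other 4 MYC livers, and MYC+Ex3 livers 1 and 2, both without keratin reads, were the lowest of all 20 in RPKM. The totals of these MYC+Ex3 libraries, 6.57 and 7.32 M, were among the largest of day 4. In reads they had 4338 and 4307, above the 3497 of MYC+Ex3 liver 3 and the 3705 of MYC liver 4. The difference between MYC+Ex3 and WT was -0.28 ± 0.1402 (adjusted p = 0.154). In reads, Cps1 ranged from 4676 to 4882 in WT livers and from 3497 to 4675 in MYC+Ex3 livers.

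Otc, which makes citrulline, was at 136, 153, 105.5, 143 and 155 in WT livers, with a mean of 138 ± 20.0 (SD, n = 5). Ex3 livers were at 107, 108, 126, 121 and 141, MYC livers at 96.8, 102, 139, 104 and 96.1, and MYC+Ex3 livers at 82.7, 70.6, 125, 109.7 and 127. The mean of the MYC+Ex3 livers was 103 ± 25.4, and their range in RPKM overlapped that of WT livers. In reads, which are not scaled to the library total, MYC+Ex3 livers had 1063 to 1387 and WT livers 1450 to 1656, without overlap. The share of all genes that separate in this way was not counted. MYC+Ex3 livers 1 and 2, the lowest in RPKM, had 1231 and 1170 reads, and MYC+Ex3 liver 3 had the fewest. Otc was lower in MYC+Ex3 than in WT livers by -0.45 ± 0.154 (adjusted p = 0.0412). Against WT livers the difference was -0.36 ± 0.154 in MYC livers (adjusted p = 0.1002) and -0.19 ± 0.154 in Ex3 livers (adjusted p = 0.991).

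Slc25a15, the ornithine and citrulline carrier, followed the same order of groups. WT livers were at 143, 169, 126, 152 and 159, Ex3 livers at 129, 129, 151, 159 and 172, MYC livers at 99.3, 117, 137, 124 and 121, and MYC+Ex3 livers at 91.5, 88.8, 126, 130.2 and 137. The means were 149.8 ± 16.5 in WT livers and 115 ± 22.7 in MYC+Ex3 livers. In reads MYC+Ex3 livers had 1630 to 2293 and WT livers 2413 to 2660, without overlap, whereas in RPKM they overlapped. The share of all genes that separate in this way was not counted. Slc25a15 was lower in MYC+Ex3 livers by -0.40 ± 0.129 against WT (adjusted p = 0.0295) and by -0.38 ± 0.129 against Ex3 livers (adjusted p = 0.0413), and the difference of -0.32 ± 0.129 between MYC and WT livers did not pass (adjusted p = 0.0785).

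The day 4 calls for Otc and Slc25a15 are small and near the threshold. Sex, read from Xist and Ddx3y, was unequal (2 males of 5 in WT livers, 4 of 5 in MYC+Ex3 livers), and with sex as a covariate the MYC+Ex3 difference from WT was -0.39 (adjusted p = 0.0918) for Otc and -0.34 (adjusted p = 0.0725) for Slc25a15, so neither was called. Among libraries without keratin reads, WT livers 1 and 3 and MYC+Ex3 livers 1 and 2, the differences were -0.64 (adjusted p = 0.0363) and -0.57 (adjusted p = 0.0201). These MYC+Ex3 livers had larger totals (6.57 and 7.32 M) than these WT livers (5.38 and 6.07 M). The part of the total in these differences was not tested. Among libraries with keratin reads, WT livers 2, 4 and 5 and MYC+Ex3 livers 3, 4 and 5, the differences were -0.32 (adjusted p = 0.0492) and -0.29 (adjusted p = 0.0468). Leaving out MYC+Ex3 liver 1 or 2, or WT liver 2, 4 or 5, ended both calls, and leaving out WT liver 1 ended that for Otc. Without MYC+Ex3 liver 2 the differences were -0.32 (adjusted p = 0.137) for Otc and -0.31 (adjusted p = 0.0992) for Slc25a15. The call of Slc25a15 against Ex3 livers ended with sex as a covariate (adjusted p = 0.0534) and without Ex3 liver 3, 4 or 5 or MYC+Ex3 liver 1 or 2 (-0.37 to -0.30, adjusted p = 0.0782 to 0.131). In the other direction, leaving out WT liver 3 made the MYC differences from WT pass for Otc (-0.45, adjusted p = 0.0434) and Slc25a15 (-0.38, adjusted p = 0.0485), and leaving out MYC liver 3 did so for Otc (-0.46, adjusted p = 0.0404). Asl in MYC+Ex3 livers passed without MYC+Ex3 liver 4 (-0.34, adjusted p = 0.0374) or 5 (-0.32, adjusted p = 0.0434).

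Slc25a13, the aspartate carrier, was at 71.3 to 106 RPKM in WT livers, 88.5 to 114 in Ex3 livers, 55.6 to 84.9 in MYC livers and 82.4 to 89.3 in MYC+Ex3 livers. Its difference of 0.25 ± 0.117 between Ex3 and WT livers did not pass after adjustment (adjusted p = 0.910). In the cytosol, Ass1 was at 77.6 to 104 in WT livers and 71.1 to 92.9 in MYC+Ex3 livers, a difference of -0.17 ± 0.110 (adjusted p = 0.271). Asl was at 141 to 186 and 110.2 to 151, a difference of -0.28 ± 0.109 (adjusted p = 0.0702), and Arg1 at 199 to 239 and 136 to 222, a difference of -0.29 ± 0.131 (adjusted p = 0.121).

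**Figure D2:**
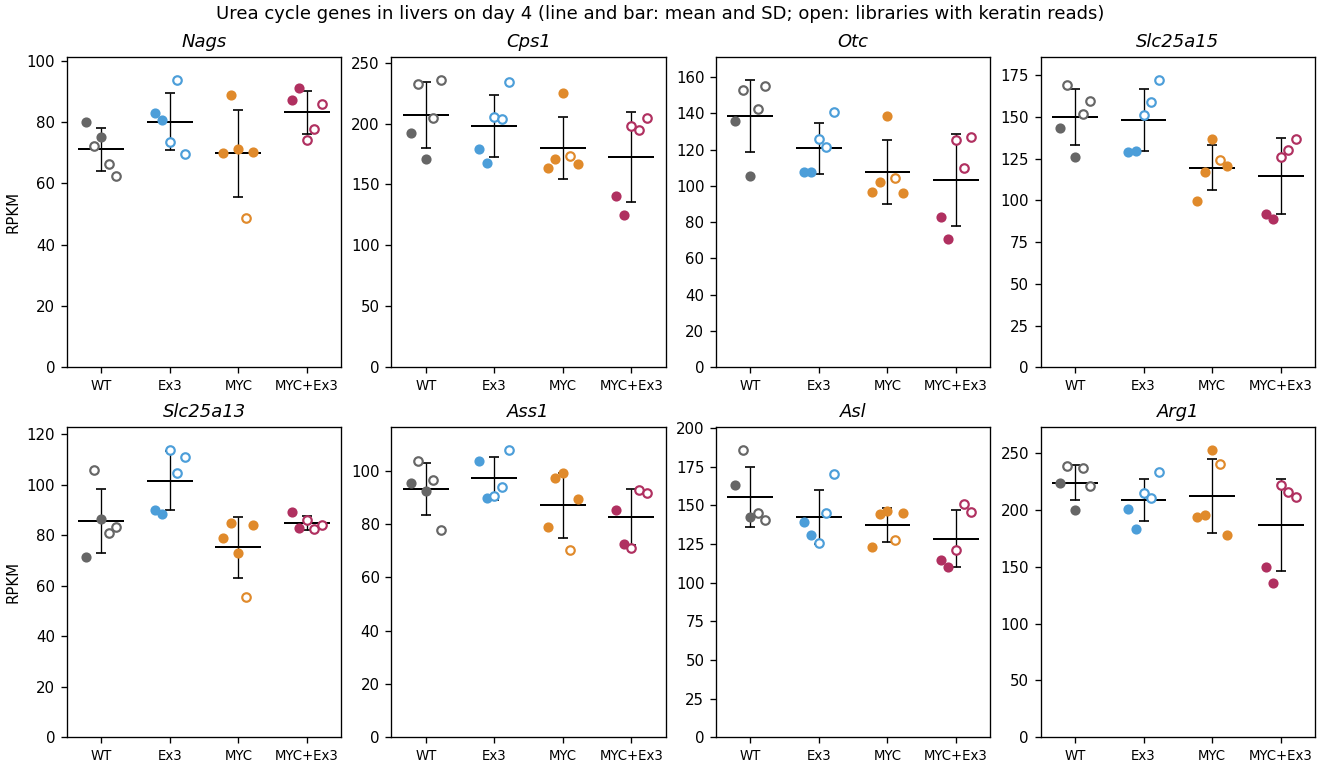
RPKM (y axis, from 0) of the 8 genes in the 20 day 4 livers, 1 point a liver by genotype, with the mean and SD; open points are libraries with keratin reads. For Otc and Slc25a15 the MYC+Ex3 livers reach down to 70.6 and 88.8, below every WT liver, while their highest points overlap the WT livers. Both of those lowest points are MYC+Ex3 liver 2, whose library total was the largest of day 4 (7.32 M).

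By comparison, 2 of 8 members were called lower and none higher in MYC+Ex3 against WT livers, where 24.1% of all genes tested were called, 17.9% higher and 6.18% lower; the count is near the share of all genes called. After rescaling each library by its median ratio, the split of all genes called moved from 2455 higher and 846 lower to 2050 and 1302. The median difference was -0.28 for the members (-0.18 without MYC+Ex3 liver 2) and 0.05 for all genes. Against Ex3 livers 1 of 8 was called lower in MYC+Ex3 livers, with 21.1% of all genes called, 16.4% higher and 4.7% lower. By limma none of 8 was called in the other day 4 comparisons: Ex3 against WT (1 at an unadjusted p under 0.05; 0.132% of all genes called), MYC against WT (2 unadjusted; 22.3% called, 16.9% higher and 5.36% lower, or 2313 and 734 genes, which rescaling made 1882 and 1302), MYC+Ex3 against MYC (1 unadjusted; 0.19% called), and the interaction of MYC with Ex3 (0 unadjusted; 0% called). The comparisons with WT share the WT livers, so their values are not independent. With the library total as a covariate Otc (-0.29, adjusted p = 0.0149) and Slc25a15 (-0.27, adjusted p = 0.0275) were also called lower in MYC livers, and Arg1 (-0.21, adjusted p = 0.0159) joined Otc and Slc25a15 in MYC+Ex3 livers.

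In the tumours the members did not move as 1 block. Otc and Arg1 were lower in MYC+Ex3 tumours than in 4-OHT WT livers, and Slc25a13 stood above the WT mean without passing the test. Cps1 overlapped with those livers in reads and RPKM. It is one of the abundant genes whose differences can be compressed, so this overlap does not show an unchanged level. For WT livers the lowest, median and highest of 7 are given, and for tumours the values in the order of their numbers. The fit tested 11854 genes. Over all of them the median difference from WT livers was 0.19 in MYC tumours and 0.23 in MYC+Ex3 tumours, and rescaling each library by its median ratio brought this to 0.01 and 0.04, so relative to all genes the members were lower than the unscaled differences show.

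Nags was at 12.8, 15.2 and 20.2 RPKM in WT livers, 19.1, 11.1 and 13.3 in MYC tumours, and 15.8, 18.5 and 19.2 in MYC+Ex3 tumours, all but the second MYC tumour within the WT range. Its difference in MYC+Ex3 tumours, 0.18 ± 0.161 (adjusted p = 0.345), turned to -0.03 after rescaling. Cps1 was at 28.4, 37.7 and 40 in WT livers, 43.3, 30.6 and 27.85 in MYC tumours, and 28.4, 37.3 and 38.85 in MYC+Ex3 tumours. Its read counts were 4876, 5304 and 5546 in WT livers, 4864, 5586 and 4837 in MYC tumours, and 4857, 5239 and 5643 in MYC+Ex3 tumours, so the groups overlapped. The difference was -0.06 ± 0.165 (95% interval -0.41 to 0.30; adjusted p = 0.793) in MYC tumours and -0.01 ± 0.165 (-0.36 to 0.35; adjusted p = 0.976) in MYC+Ex3 tumours.

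Otc was at 18.1, 22.5 and 26.4 RPKM in WT livers and at 27.5, 17.5 and 15.1 in MYC tumours. In MYC+Ex3 tumours it was at 9.22, 13.98 and 12.05, below every other library of the arm. In reads these tumours had 759, 946 and 843, against 1434 to 1868 in WT livers and 1490, 1537 and 1266 in MYC tumours, so MYC+Ex3 tumours did not overlap with the other groups on either scale. For this and the gaps between groups given below, the share of all genes that separate in the same way was not counted. The difference from WT livers was -0.85 ± 0.181 in MYC+Ex3 tumours (adjusted p = 0.001025, limma), a mean of 11.7 ± 2.39 (SD, n = 3) against 21.9 ± 3.30 (n = 7), and -0.15 ± 0.181 in MYC tumours (adjusted p = 0.498). It was called in each fit that left out 1 of the 13 libraries, at -0.98 to -0.70.

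Otc was also set against Cps1, a gene of the same compartment, which needs no library total. Cps1 had nearly the same reads in every library of the tumour arm (4837 to 5643). The ratio there therefore mostly restates the Otc reads above and is no separate support. Per 100 reads of Cps1 there were 14.9, 15.6 and 18.1 reads of Otc in the MYC+Ex3 tumours (lowest, median, highest), 26.2, 27.5 and 30.6 in MYC tumours and 27.1, 29.6 and 33.7 in 4-OHT WT livers. On day 4 the same ratio lay between 27.1 and 34.02 in all 20 livers. Within the tumour arm the highest MYC+Ex3 tumour thus lay below the lowest library of the other groups. Arg1 separated there in the same way, at 16.92 to 25.02 per 100 reads of Cps1 in MYC+Ex3 tumours. Its lowest value in the other groups of the arm was 29.52. Ass1 (16.45 to 19.81, against 22.33 or more) and, narrowly, Asl (25.77 to 26.56, against 26.69 or more) also separated. The ratios of Nags, Slc25a15 and Slc25a13 in MYC+Ex3 tumours overlapped with those of other groups of the arm.

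Directly against MYC tumours, Otc was at -0.70 ± 0.214 in MYC+Ex3 tumours, which did not pass after adjustment (unadjusted p = 0.00573, adjusted p = 0.0901, limma). With the library total as a covariate, which lowered the standard error to 0.108, the difference was -0.71 (adjusted p = 0.00164). Leaving out 1 library gave -0.87 to -0.45 (adjusted p = 0.0373 to 0.273), and the lower of these p-values came without MYC tumour 3. The effect of Ex3 in the presence of MYC was -0.70 in tumours and -0.08 on day 4, and the test of the difference between these effects gave -0.61 ± 0.313 (unadjusted p = 0.0687, adjusted p = 0.9997); with the covariate it gave -0.63 ± 0.167 (unadjusted p = 0.00197, adjusted p = 0.352).

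Neither carrier passed the test in the tumours. Slc25a15 was at 21.5, 28.8 and 29.8 RPKM in WT livers, 24.8, 20.9 and 23.4 in MYC tumours, and 19.7, 23.6 and 24.2 in MYC+Ex3 tumours, differences of -0.19 ± 0.129 (adjusted p = 0.228) and -0.23 ± 0.129 (adjusted p = 0.141). In reads the MYC+Ex3 tumours had 2437 to 2579 and WT livers 2804 to 3216, without overlap, whereas in RPKM they overlapped. With the covariate the MYC+Ex3 difference kept its size at -0.23 and passed (adjusted p = 0.0188). Slc25a13 was at 14.4, 18.8 and 22.2 in WT livers, 25.2, 18.8 and 20.5 in MYC tumours, and 20.25, 24.8 and 26.7 in MYC+Ex3 tumours. The latter difference was 0.33 ± 0.142 (adjusted p = 0.0540), called higher with the covariate (0.33, adjusted p = 0.00659) and 0.12 after rescaling (adjusted p = 0.400). In reads Slc25a13 in MYC+Ex3 tumours (2298 to 2575) lay above WT livers (1641 to 2193), and MYC tumours (1883 to 2361) overlapped with WT livers.

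Ass1 and Asl build argininosuccinate and split it, and neither passed the test in either tumour type. Ass1 was at 19.4, 24.5 and 26.04 RPKM in WT livers, 31.3, 20.01 and 19.96 in MYC tumours, and 13.4, 20.4 and 22.1 in MYC+Ex3 tumours. Its difference from WT livers was -0.35 ± 0.169 in the latter (adjusted p = 0.0896) and -0.02 ± 0.169 in MYC tumours (adjusted p = 0.945). In reads Ass1 in MYC+Ex3 tumours (799, 1001 and 1118) lay below WT livers (1158 to 1374), and MYC tumours (1208 to 1274) overlapped with WT livers. Asl was at 28.6, 36.5 and 40.8 in WT livers, 35.6, 25.1 and 25.7 in MYC tumours, and 23.2, 30.2 and 30.8 in MYC+Ex3 tumours. Its differences were -0.31 ± 0.144 (adjusted p = 0.0907) and -0.34 ± 0.144 (adjusted p = 0.0570).

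In reads, which are not scaled to the library total, Asl in both tumour types lay below WT livers, whereas in RPKM both overlapped with them. WT livers had 1597 to 1936 reads, MYC tumours 1300, 1491 and 1449, and MYC+Ex3 tumours 1290, 1379 and 1454, so no tumour reached the lowest WT liver. With the library total as a covariate Asl was lower in both tumour types, by -0.30 ± 0.0641 (adjusted p = 0.00151) and -0.34 ± 0.0641 (adjusted p = 0.000442). Of all 11854 genes this fit called 1937 and 2458 lower. Ass1 was then lower in MYC+Ex3 tumours (-0.35, adjusted p = 0.00328) and stood at -0.01 in MYC tumours (adjusted p = 0.926).

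Arg1, the enzyme that releases urea, was at 33.3, 43.45 and 46.8 RPKM in WT livers, 48.6, 28.75 and 28.9 in MYC tumours, and 15.3, 29.7 and 29.9 in MYC+Ex3 tumours. All 3 MYC+Ex3 tumours were below the lowest WT liver, and MYC+Ex3 tumour 1 was far below the other 2 (822 reads against 1311 and 1364). In RPKM MYC tumours 2 and 3 were close to MYC+Ex3 tumours 2 and 3, while in reads they were higher (1649 and 1577). WT livers had 1797 to 2008 reads, more than any tumour of either type. The difference from WT livers was -0.72 ± 0.214 in MYC+Ex3 tumours (adjusted p = 0.00992) and -0.21 ± 0.214 in MYC tumours (adjusted p = 0.429). Without MYC+Ex3 tumour 1 the MYC+Ex3 difference was -0.41 (adjusted p = 0.0945), so the call depends on that tumour. Against the 3 livers of the S15 set of titles alone it was -0.67 (adjusted p = 0.0797), a similar difference that did not pass with fewer WT livers. Between the tumour types Arg1 differed by -0.50 ± 0.253 (adjusted p = 0.326), and by -0.52 with the covariate (adjusted p = 0.0266).

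**Figure D3:**
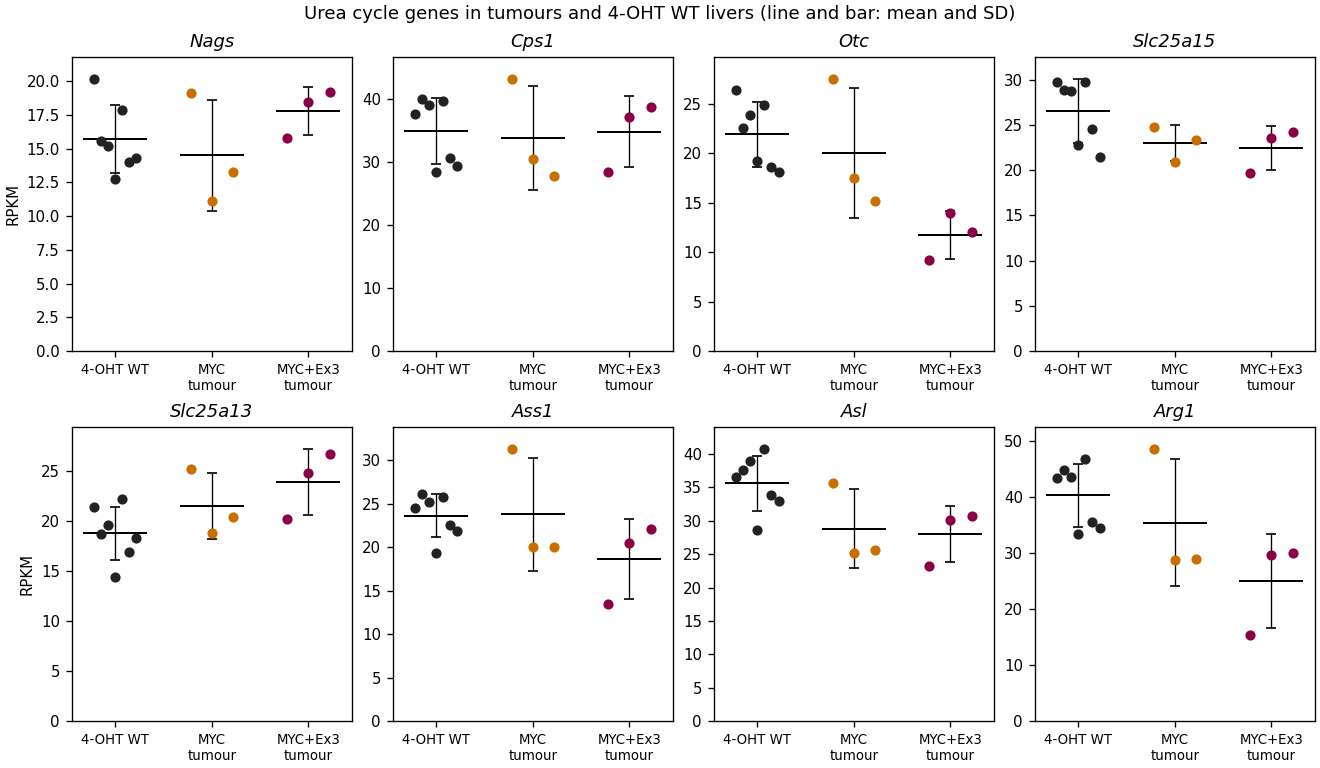
RPKM (y axis, from 0) of the 8 genes in 7 4-OHT WT livers, 3 MYC tumours and 3 MYC+Ex3 tumours, 1 point a library with the mean and SD. All 3 MYC+Ex3 tumours are lowest for Otc and below every WT liver for Arg1, and MYC tumour 1 has the highest value of its group for all 8 genes.

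MYC tumour 1 also had the smallest total of the arm, 23.9 M against 36.9 and 38.8 M in the other MYC tumours. Without it 5 of 8 members were called in MYC+Ex3 tumours against WT livers, as the spread shared by all groups became smaller. The differences themselves did not move (Ass1 at -0.35, adjusted p = 0.0420; Asl at -0.34, adjusted p = 0.0246; Slc25a13 at 0.33, adjusted p = 0.0365). Asl in MYC tumours stood at -0.47 without it (adjusted p = 0.0131). Slc25a13 in MYC+Ex3 tumours also passed without MYC+Ex3 tumour 1 (0.45, adjusted p = 0.0309), WT liver 1 (0.37, adjusted p = 0.0408) or WT liver 5 (0.37, adjusted p = 0.0372), and Asl passed there without WT liver 4 (-0.39, adjusted p = 0.0299).

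In all, 2 of 8 members were called in MYC+Ex3 tumours against WT livers, both lower, where 60.6% of all genes were called, 42.3% higher and 18.4% lower. By limma none of 8 was called in MYC tumours (0 at an unadjusted p under 0.05), where 49.8% of all genes were called, 36.2% higher and 13.7% lower. Between the tumour types limma called none (1 unadjusted, Otc), where 4.13% of all genes were called, 2.02% higher and 2.1% lower. For the difference of the Ex3 effects between tumours and day 4 limma called none of 8 (0 unadjusted) and 0.111% of all genes, 0.0889% higher and 0.0222% lower. Read against these shares, the counts are no result about the members as a set, and what the test called in the tumours is Otc and Arg1. The median difference over the members was -0.28 in MYC+Ex3 and -0.14 in MYC tumours, below the all-gene medians of 0.23 and 0.19. Both medians moved by over 1.5 times with single libraries: that of MYC tumours was -0.29, -0.04 and -0.04 without MYC tumour 1, 2 and 3 and -0.09 without 4-OHT WT liver 1, and that of MYC+Ex3 tumours was -0.14 without MYC+Ex3 tumour 1. After rescaling, 5 members were lower in MYC+Ex3 tumours (Otc -1.06, Arg1 -0.94, Ass1 -0.56, Asl -0.56, Slc25a15 -0.45) and 2 in MYC tumours (Asl -0.52, Slc25a15 -0.41). The rescaling also changed the split of all genes called in MYC+Ex3 tumours from 5011 higher and 2178 lower to 3999 and 3246, and in MYC tumours from 4286 and 1621 to 3196 and 2790.

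**Figure D4:**
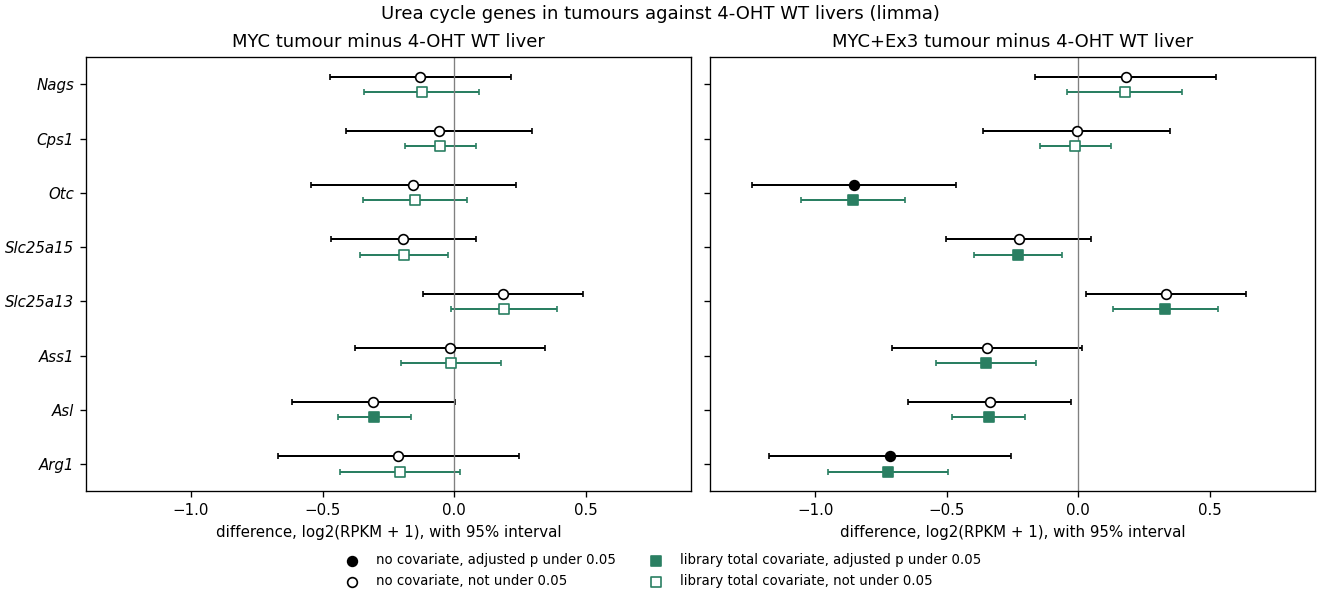
Difference from 4-OHT WT livers (x axis, log2(RPKM + 1), with the 95% interval of limma) for each gene in MYC tumours (left) and MYC+Ex3 tumours (right), without a covariate (circles) and with the library total as covariate (squares); filled symbols have an adjusted p under 0.05. The covariate leaves the differences in place, for example Otc at -0.85 and -0.86, and narrows their intervals.

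The authors' deposited table gives its own comparisons, made from the same libraries, and there 5 of 8 members were lower in MYC+Ex3 tumours at an adjusted p under 0.05, where 60.65% of all genes in the authors' deposited table were under it. The authors' deposited table has Otc at -1.10, Arg1 at -0.90, Ass1 at -0.56, Asl at -0.56 and Slc25a15 at -0.45 (log2). In MYC tumours the authors' deposited table lists Asl at -0.51 and Slc25a15 at -0.41 under 0.05, beside 44.51% of all genes. Between the tumour types the authors' deposited table has none of the 8 under 0.05, beside 4.486% of all genes, with Otc at -0.71 (adjusted p = 0.147). On day 4 the authors' deposited table has Otc at -0.45 and Slc25a15 at -0.42 in MYC livers, and Slc25a15 at -0.46 in MYC+Ex3 livers, under 0.05, beside 20.48% and 27.77% of all genes in the 2 comparisons.

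Among the genes that feed the cycle, Car5a was lower in both tumour types and Gls2 in MYC+Ex3 tumours. Of 12 genes that supply ammonia, bicarbonate and aspartate, 3 were higher and 2 lower in MYC tumours, and 2 were higher and 4 lower in MYC+Ex3 tumours (5 and 6 lower after rescaling, with 2 higher in each). Of all genes 49.8% and 60.6% were called before rescaling, so 5 and 6 of 12 are no result about the list. Car5a, the mitochondrial carbonic anhydrase that provides bicarbonate to CPS1, was at 6.28 to 9.62 RPKM in WT livers, 0.270 to 1.58 in MYC tumours and 0.784 to 1.33 in MYC+Ex3 tumours, lower by -2.38 ± 0.198 (adjusted p = 1.16e-06) and -1.996 ± 0.198 (adjusted p = 1.87e-06).

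Gls2, the liver glutaminase, which releases ammonia near CPS1 and is also on the periportal list, differed between the tumour types. It was at 19.9 to 28.1 RPKM in WT livers, 18.6 to 27.7 in MYC tumours and 4.92 to 10.8 in MYC+Ex3 tumours. The last was lower by -1.51 ± 0.187 than WT livers (adjusted p = 1.20e-05) and by -1.53 ± 0.221 than MYC tumours (adjusted p = 0.00109). Slc25a12, the other aspartate carrier, was higher in both, at 0.63 ± 0.127 (adjusted p = 0.00104) and 0.60 ± 0.127 (adjusted p = 0.001005). On day 4 Slc25a12 was higher in MYC (0.59, adjusted p = 0.00901) and MYC+Ex3 livers (0.68, adjusted p = 0.00261), and 1 and 2 of the 12 genes were lower there: Sirt3, a mitochondrial deacetylase, in MYC livers (-0.42, adjusted p = 0.0157), and Got1 (-0.75, adjusted p = 0.0387), the cytosolic aspartate aminotransferase, with Gls2 (-0.47, adjusted p = 0.0237) in MYC+Ex3 livers. Of all genes 5.36% and 6.18% were called lower in these livers.

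Pyrimidine synthesis also begins from carbamoyl phosphate, made in the cytosol by CAD rather than by CPS1. All 3 genes of its list, Cad, Dhodh and Umps, were higher in MYC and MYC+Ex3 livers and in both tumour types, each against WT livers and also after rescaling. Of all genes 16.9% and 17.9% were called higher in these livers, and 36.2% and 42.3% in MYC and MYC+Ex3 tumours. Cad was at 3.48, 4.02, 4.58, 5.04 and 6.46 RPKM in the WT livers of day 4 (in rising order) and at 15.8, 22.5, 25.1, 25.85 and 38.0 in the MYC livers, without overlap, a difference of 2.18 ± 0.350 (adjusted p = 0.000135). In the tumour arm it was at 1.52 to 3.50 in WT livers, 8.33 to 15.1 in MYC tumours and 13.2 to 14.55 in MYC+Ex3 tumours, with differences of 1.73 ± 0.203 (adjusted p = 2.02e-05) and 2.05 ± 0.203 (adjusted p = 1.91e-06). Dhodh differed by 1.35 and 1.59 and Umps by 1.22 and 1.07 in the 2 tumour types. In the same tumours Cps1 differed by -0.06 and -0.01. Cps1 is one of the abundant genes whose differences can be compressed, so these values do not show that its level was unchanged.

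**Figure D5:**
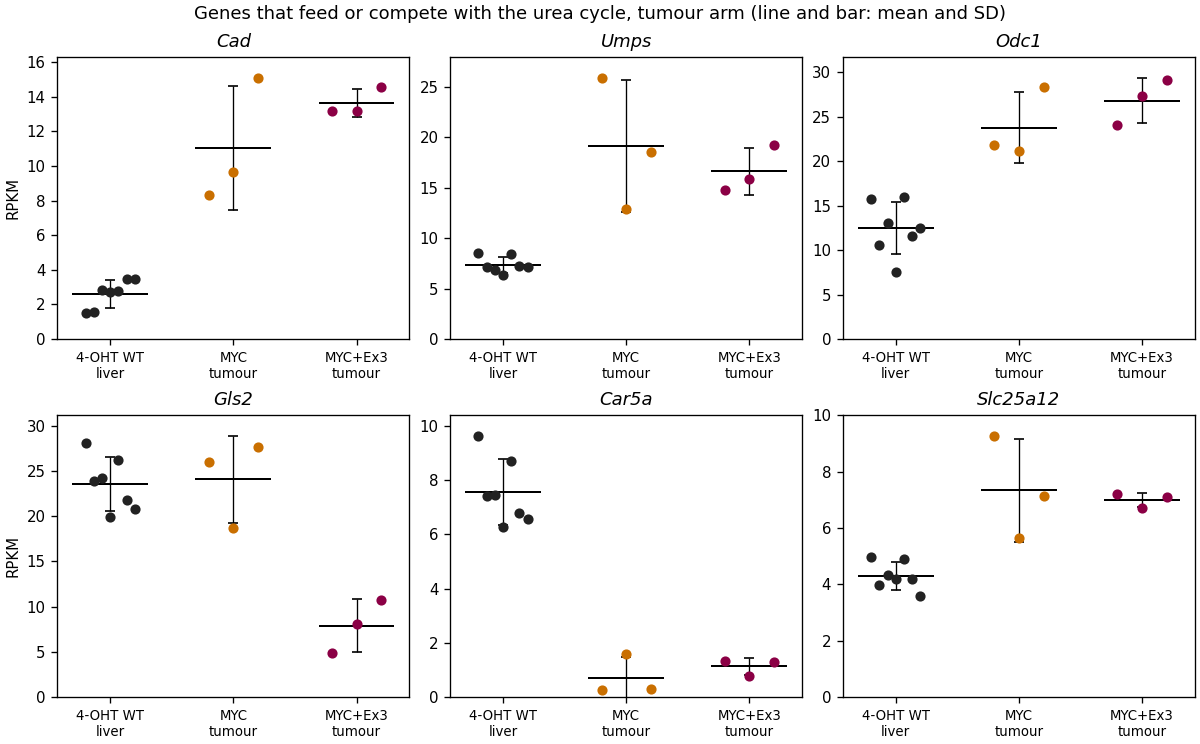
RPKM (y axis, from 0) of Cad, Umps, Odc1, Gls2, Car5a and Slc25a12 in the 13 libraries of the tumour arm, 1 point a library with the mean and SD. Cad and Umps lie above the WT livers in every tumour and Car5a below, and Gls2 is low in the MYC+Ex3 tumours alone.

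Of 9 other users of arginine and ornithine, 6 were tested in the tumour arm and 8 on day 4. Odc1, which turns ornithine into putrescine, the first step to polyamines, was higher in MYC livers (0.92 ± 0.173, adjusted p = 0.000671), MYC+Ex3 livers (0.90, adjusted p = 0.000683), MYC tumours (0.90 ± 0.184, adjusted p = 0.00117) and MYC+Ex3 tumours (1.076 ± 0.184, adjusted p = 0.000178). Oat, the ornithine aminotransferase of pericentral cells, was lower in MYC livers (-1.02 ± 0.245, adjusted p = 0.00507) and MYC tumours (-1.02 ± 0.194, adjusted p = 0.000721), and higher in MYC+Ex3 than in MYC tumours (0.94 ± 0.230, adjusted p = 0.0344). Gatm, which starts creatine synthesis from arginine, was lower in MYC tumours (-1.09 ± 0.332, adjusted p = 0.0143). Nos3, the endothelial nitric oxide synthase, was lower in MYC tumours (-0.29, adjusted p = 0.0323) and MYC+Ex3 tumours (-0.56, adjusted p = 0.000353), beside lower endothelial markers in the same tumours. The part of those cells in Nos3 was not tested.

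The zones of the lobule gave a background to Otc and Arg1. The periportal list, like the other gene lists, was chosen with earlier results of these data known. Counts from these lists beside the shares of all genes are therefore no unbiased test. Of 10 periportal genes outside the cycle, 7 were lower and none higher in MYC+Ex3 tumours against WT livers, and 1 was lower in MYC tumours (9 and 3 after rescaling). Of all genes 18.4% and 13.7% were called lower in these comparisons before rescaling, so 1 of 10 is near the share of all genes. Cyp2f2, a periportal cytochrome P450, was lower by -4.18 ± 0.574 in MYC+Ex3 tumours (adjusted p = 2.90e-05) and by -2.48 ± 0.574 in MYC tumours (adjusted p = 0.00280). Sds, the serine dehydratase, was lower in MYC+Ex3 tumours by -3.37 ± 0.332 (adjusted p = 1.82e-06), Hsd17b6 by -2.46 ± 0.577 (adjusted p = 0.00204) and Hal, the histidine ammonia-lyase, by -2.40 ± 0.340 (adjusted p = 3.78e-05). Between the tumour types 3 of these 10 were lower in MYC+Ex3 tumours, among them Sds (-3.33, adjusted p = 0.000215) and Hal (-1.62, adjusted p = 0.0365), beside 2.1% of all genes.

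The median over the periportal list was -1.62 in MYC+Ex3 and -0.47 in MYC tumours. On day 4, 3 of the 10 were lower in MYC+Ex3 livers, among them Hal (-0.88, adjusted p = 0.00612) and Gls2, and 2 in MYC livers, Pck1 (-0.74, adjusted p = 0.0394) and Tat (-0.57, adjusted p = 0.0418). Of all genes 6.18% and 5.36% were called lower in these 2 comparisons with WT livers.

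Pericentral genes, which meet the ammonia that leaves the periportal zone, went the other way between the tumour types. All 9 were lower in MYC tumours against WT livers, where 13.7% of all genes were called lower. In MYC+Ex3 tumours 4 were higher, which is near the 42.3% of all genes called higher there. Both counts were the same after rescaling. Between the tumour types 7 of the 9 were higher in MYC+Ex3 tumours, beside 2.02% of all genes. Rhbg, an ammonium transporter, was at 2.98 to 7.27 RPKM in WT livers, 0.0800 to 1.09 in MYC tumours and 16.1 to 18.5 in MYC+Ex3 tumours, a difference of 3.72 ± 0.263 between the tumour types (adjusted p = 1.16e-06). Slc1a2, a glutamate transporter, differed between them by 3.37 ± 0.409 (adjusted p = 0.000270), Axin2 by 3.003 ± 0.202 (adjusted p = 9.09e-07) and Tbx3 by 2.27 ± 0.213 (adjusted p = 1.95e-05). On day 4, 6 of the 9 were lower in MYC livers than in WT livers, among them Slc1a2 (-2.06, adjusted p = 0.00339), with a median of -0.68 over the list. Of all genes 5.36% were called lower there. Axin2, Rhbg and Lgr5 were higher in Ex3 livers than in WT livers and, with Slc1a2, in MYC+Ex3 than in MYC livers, where no urea cycle gene was called. In these 2 comparisons 0.132% and 0.19% of all genes were called higher.

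Of 10 regulators of urea cycle genes, 1 was higher in MYC tumours, and 1 was higher and 2 lower in MYC+Ex3 tumours. Of all genes 49.8% and 60.6% were called there, so these counts are no result about the list. Rescaling called 6 lower in MYC tumours and 4 in MYC+Ex3 tumours, beside 2790 and 3246 of all 11868 genes. Cebpa, a transcription factor of liver metabolism, was lower in MYC+Ex3 tumours (-0.59 ± 0.175, adjusted p = 0.00929) and in MYC+Ex3 livers (-0.35 ± 0.110, adjusted p = 0.0252). Nr3c1, the glucocorticoid receptor, was lower in MYC livers (-0.46, adjusted p = 0.00415), MYC+Ex3 livers (-0.52, adjusted p = 0.00158) and MYC+Ex3 tumours (-0.30, adjusted p = 0.0213). Hnf4a was lower in MYC+Ex3 livers (-0.29, adjusted p = 0.0354), and Klf15 was lower in MYC+Ex3 than in Ex3 livers (-0.59, adjusted p = 0.0468). Ppargc1a, a coactivator of the fasting response, was higher in both tumour types (0.89, adjusted p = 0.00279, and 0.92, adjusted p = 0.00154).

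Markers of other cells moved in the same tumours. The counts below stand beside the shares of all genes called against WT livers. These were 36.2% higher and 13.7% lower in MYC tumours, and 42.3% higher and 18.4% lower in MYC+Ex3 tumours. Of the macrophage markers 4 of 5, and of the endothelial markers 3 of 5, were lower in each tumour type; the summed macrophage level was 62.8 to 84.1 RPKM in WT livers, 17.8 to 63.5 in MYC tumours and 23.8 to 30.3 in MYC+Ex3 tumours, and no macrophage or endothelial marker was at 0 in any library. All 3 erythroid markers were higher in MYC+Ex3 tumours (46.1 to 54.5 summed, against 12.7 to 29.8), and 5 of 5 proliferation markers were higher in both. The hepatocyte markers summed to 301 to 403 in WT livers, 244 to 407 in MYC tumours and 246 to 314 in MYC+Ex3 tumours, and 4 of 9 were lower in MYC+Ex3 tumours (Alb, Ttr, Serpina1a and Tat). Alb, singled out after its values were seen, was at -0.35 (adjusted p = 0.0473). It is one of the abundant genes whose differences can be compressed, so its change is no measure for that of Otc. Of 7 markers of stellate cells and fibroblasts, 4 were higher and 2 lower in MYC tumours, and 2 were higher and 3 lower in MYC+Ex3 tumours (summed 32.3 to 42.1 RPKM in WT livers, 26.3 to 50.6 in MYC and 22.3 to 30.3 in MYC+Ex3 tumours). Of 2 T and B cell markers tested, both were lower in MYC+Ex3 tumours and neither was called in MYC tumours (all 4 of the list summed to 4.41 to 7.56 RPKM in WT livers, 2.32 to 2.94 in MYC+Ex3 and 1.55 to 6.34 in MYC tumours). Cholangiocyte markers summed to 9.96 to 14.7 in WT livers, 6.68 to 19.6 in MYC tumours and 3.64 to 8.43 in MYC+Ex3 tumours. The part of these cells in the values of Otc and Arg1 was not tested.

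The genes whose levels ran most like those of Otc were found by the root mean square difference of log2(RPKM + 1), after centring each gene on its mean over the libraries. Across the 13 libraries of the tumour arm they were Acat3 (0.0877), Serpina1c (0.138), Aadat (0.145), Apoc3 (0.150) and Parp9 (0.156), out of 5465 genes with a median of 0.531, where the SD of Otc itself was 0.441. Across the 20 day 4 livers they were Hsd11b1 (0.0981), Fbp1 (0.101), Uox (0.102), Scd1 (0.102) and Apof (0.107), out of 9644 genes with a median of 0.451. Members were not eligible for these lists, and all genes of a library share its total.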

How the data were processed

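Per the submitters' processing notes, TopHat2 2.0.8, SAMtools, featureCounts 1.4.5-p1, DESeq2 and the mouse build mm9 were used, with no roles given. The authors deposited RPKM per gene and library, and log2 fold changes with adjusted p-values of their own comparisons. Libraries were stranded total RNA, per the labels' protocols. Members and gene lists were chosen with earlier results of these data known.

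Genes with an RPKM of at least 1 in at least 3 libraries were tested on log2(RPKM + 1) with limma 3.58.1 (R 4.3.3, eBayes with trend, two-sided) in 1 fit for the 20 day 4 livers, 1 for the 13 libraries of the tumour arm and 1 for the 16 libraries with MYC. The p-values were adjusted by Benjamini-Hochberg over all genes tested, and genes under 0.05 were called. The 8 members and at most 4 called genes a list and experiment are named with values, those with the largest change. The values of 1 gene of the supply list are not reported here. Reads and library totals were recovered from the ratios between a gene's RPKM values, as the smallest whole numbers that give them to a relative tolerance of 1e-09; the totals entered 1 alternative fit as a covariate, added after the data were seen. Libraries with a summed keratin RPKM above 1 were set apart in an alternative.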

Additional observations from a re-analysis of the deposited data

Results flagged for a closer look

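In MYC liver 3 of day 4, Cps1 was at 225.4 RPKM and Otc at 138.6 RPKM, each far from the next of the 5 MYC livers, which lay between 164 and 173 for Cps1 and between 96.1 and 104 for Otc. These were 2 of 40 sets of 4 to 10 values examined in this way, a rule that flags about 1 set in 20 by chance. The same liver had the smallest library total of its group, 4.39 M reads. In reads it was not apart, with 4658 for Cps1 (3705 to 5260 in MYC livers) and 1379 for Otc (1074 to 1457).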

How the results depend on the processing

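Counts of members called kept within 1.5 times of the reported count in 76 of 97 alternatives and left it in 21, those that leave out 1 library included only as ranges. In MYC against WT livers the count of 0 became 1 with sample quality weights and 2 with the library total as covariate. In MYC+Ex3 against WT livers the count of 2 became 1 with no filter, 0 with only the groups compared or with sex as covariate, 6 with weights, and 4 with a keratin term or without the keratin libraries. In MYC+Ex3 against Ex3 livers the count of 1 became 0 with no filter, only the groups compared, sex, or only the keratin libraries, and 7 with weights. In MYC tumours the count of 0 became 2 after rescaling and 1 with the library total; in MYC+Ex3 tumours the count of 2 became 5 after rescaling, with only the groups compared or with weights, 6 with the library total, and 1 against the S15 livers; between tumour types 0 became 2 with the library total. The cause was not tested, except that smaller fits hold fewer libraries. Nags in MYC+Ex3 tumours reversed to -0.0339 after rescaling. Leaving out each library gave counts of 0 to 2 (MYC against WT), 0 to 3 (MYC+Ex3 against WT), 0 to 1 (MYC+Ex3 against Ex3), 0 to 1 (MYC tumours), 2 to 5 (MYC+Ex3 tumours), 0 to 1 (between tumour types) and 0 to 0 in the other comparisons. Otc in MYC+Ex3 tumours was called in all 10 alternatives, at -1.06 to -0.76. No paired analysis was possible because replicate numbers follow accession order and pair no samples. Only 1 MYC liver had keratin reads, so no MYC value within those libraries was run.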
